A study of Mus musculus with 14 samples.

Results

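miR-135a and miR-135b are mouse microRNAs of the miR-135 family, and each was read by a single real-time PCR assay on a TaqMan microRNA array card. They were chosen by the assay names mmu-miR-135a and mmu-miR-135b, with their values on these arrays known, and make up 2 of the 375 microRNA assays of the card. Their levels are therefore given as a description, with differences and standard errors but no p-value. The study transplanted hearts heterotopically between mice aged 8 to 10 weeks. In the syngeneic groups a C57BL/6 heart was placed in a C57BL/6 recipient and was not rejected, and in the allogeneic groups a BALB/c heart was placed in a C57BL/6 recipient and was rejected. Whole hearts were taken on day 7 (3 syngeneic and 3 allogeneic arrays) beside 1 array of untransplanted BALB/c hearts. Lymphocytes that had infiltrated the grafts (GIL) were taken on day 5 (3 and 3 arrays) beside 1 array of blood mononuclear cells (PBMC) from untransplanted C57BL/6 mice. Each array held RNA pooled from 3 animals, 100 ng of each, so that n counts pools. The labels do not say whether pools of a group were prepared independently, and the spread between them may be partly technical. The strain of the heart differs between the syngeneic and the allogeneic grafts, and it also differs between the syngeneic grafts and the normal hearts, whereas allogeneic grafts and normal hearts are both BALB/c.

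MicroRNAs pair through the seed, bases 2 to 8 of the mature strand, with sites in messenger RNAs and lower the output of those messages. Human miR-135a and miR-135b lower APC, which restrains Wnt signalling, and human miR-135a lowers the kinase JAK2. In mouse C2C12 myoblasts, miR-135 acts on Smad5, which carries signals from bone morphogenetic protein (BMP) receptors, and miR-133 acts on Runx2, the main transcription factor of bone formation. BMP2 lowers both microRNAs in those cells.

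The mouse genome has a pair of genes for miR-135a and a single gene for miR-135b. The sequences are shown because the assay for miR-135a cannot separate its genes. They come from RefSeq (GRCm38.p6), are written 5′ to 3′, and the capitals mark the seed of miR-135a or the same letters in a hairpin.
miR-135a-5p: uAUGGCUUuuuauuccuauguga
Mir135a-1 hairpin: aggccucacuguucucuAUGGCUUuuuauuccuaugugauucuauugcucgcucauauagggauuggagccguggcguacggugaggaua
Mir135a-2 hairpin: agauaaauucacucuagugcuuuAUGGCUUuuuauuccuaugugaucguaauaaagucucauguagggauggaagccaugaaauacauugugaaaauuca
Mir135b hairpin: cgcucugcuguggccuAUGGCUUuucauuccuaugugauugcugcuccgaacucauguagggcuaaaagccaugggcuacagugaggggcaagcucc
The mature entry of miR-135b-5p was not matched. Mir135a-1 lies at chr9:106154124-106154213 (plus strand), Mir135a-2 at chr10:92072086-92072185 (minus strand) and Mir135b at chr1:132198088-132198184 (plus strand). The hairpins of Mir135a-1 and Mir135a-2 share a run of 24 bases that holds all 23 of the mature strand. The longest runs that the Mir135b hairpin shares with them are 14 and 13 bases. These runs are cut short by a single base: along the 23 bases of miR-135a-5p the Mir135b hairpin differs only in a c for a u. The letters AUGGCUU occurred in 8 of the 1005 mouse hairpins of the table (0.796%). Detection of each microRNA by the other's assay was not tested.

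In RefSeq, Mir135a-1 lies within the span of Glyctk and of D030055H07Rik, and Mir135b within the span of Lemd1 and of Gm29695. Exon or intron was not resolved. Mir135a-2 overlaps no other gene, and the long noncoding RNA gene Rmst has its nearer end 9560 bases away. The gene of let-7g lies 24626 bases from Mir135a-1.

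Between 228 and 260 microRNA assays had a threshold cycle (Ct) under 35, and so counted as detected, on the heart arrays, against 161 to 221 on the GIL and PBMC arrays. Ct falls as the level rises, by 1 for each doubling. The level used below is the mean Ct over the reference assays, those detected on all 7 arrays of a table, minus the Ct of the assay on the same array. It is on a log2 scale and is negative for assays below that mean. Precision is limited by the number of pools. The array of allogeneic GIL pool 3 was the weakest: it detected 161 assays at a mean reference Ct of 28.0, where the other 6 arrays of its table had 23.2 to 25.8.

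In whole hearts both microRNAs were highest in syngeneic grafts. The share of all assays that separate the pools in the same way was not counted, so that nothing is read from the order of the pools. Differences between the kinds of graft were common: the unadjusted limma p was under 0.05 for 113 of the 238 assays tested. miR-135a was read at Ct 25.1, 25.7 and 25.8 in the syngeneic pools 1 to 3, at 28.4, 28.8 and 28.8 in the allogeneic pools and at 28.9 in normal hearts. Its levels were -2.73, -2.31 and -2.04 in the syngeneic pools, -5.22, -5.70 and -5.35 in the allogeneic pools and -5.08 in normal hearts. The 3 allogeneic pools thus lay within 0.62 of the normal array and the 3 syngeneic pools at least 2.35 above it. The mean level was -2.36 ± 0.35 (SD, n = 3 pools) in syngeneic and -5.42 ± 0.24 (SD, n = 3 pools) in allogeneic grafts.

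miR-135b was read at Ct 26.0, 26.0 and 26.9 in the syngeneic pools, at 28.1, 30.1 and 29.2 in the allogeneic pools and at 28.0 in normal hearts. Its levels were -3.57, -2.60 and -3.16 in the syngeneic pools, -4.93, -6.96 and -5.67 in the allogeneic pools and -4.14 in normal hearts. Every syngeneic pool lay above the normal array and every allogeneic pool below it. The instrument software had marked the well of allogeneic pool 2, the lowest of the 7, as showing no amplification, although it gave a Ct. The mean level was -3.11 ± 0.49 (SD, n = 3 pools) in syngeneic and -5.85 ± 1.03 (SD, n = 3 pools) in allogeneic grafts.

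**Figure D1:**
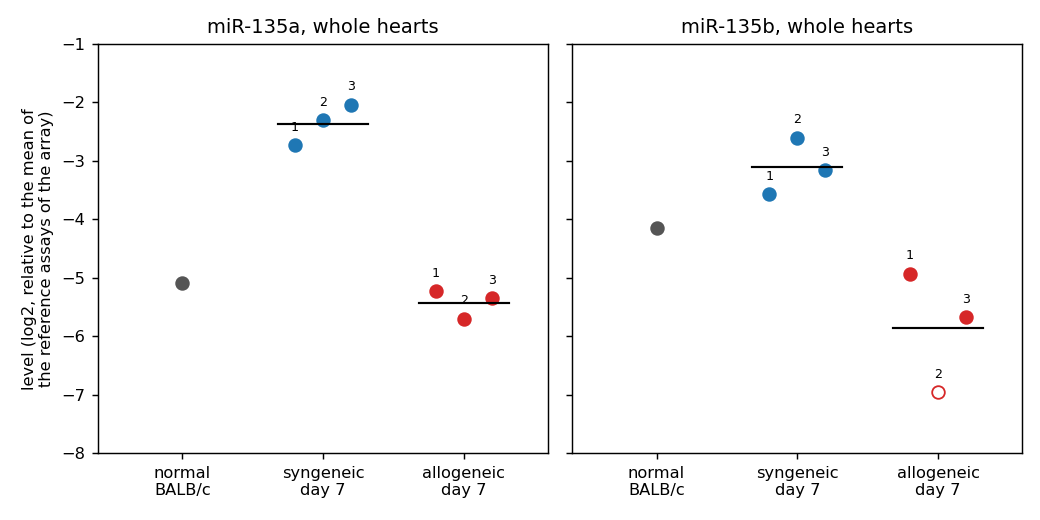
Level (log2, relative to the mean of the reference assays of the array) of miR-135a and miR-135b in normal BALB/c hearts (1 array, grey) and in syngeneic (blue) and allogeneic (red) grafts on day 7, with pool numbers above the points, group means as lines and the well marked by the software as an open circle. The syngeneic pools sit highest for both assays, between -2.73 and -2.04 for miR-135a and between -3.57 and -2.60 for miR-135b.

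The allogeneic minus syngeneic difference was -3.06 ± 0.27 log2 units (limma SE, n = 3 pools per group) for miR-135a, 8.36-fold lower in allogeneic grafts. For miR-135b it was -2.74 ± 0.54 (limma SE, n = 3 pools per group), 6.69-fold lower. Among the 238 assays tested these were the 7th and the 10th lowest differences, and the median of all was 0.02. In this comparison 36 of 238 assays (15.1%) were called lower by limma at an adjusted p under 0.05, and both miR-135 assays were among them. Nothing is read from their place in that count, since both were chosen with these values known. The total of 77 calls in both directions was 42 without syngeneic pool 2, 45 without syngeneic pool 3 and 43 without allogeneic pool 1. In bulk tissue, fewer cells that make a microRNA cannot be told apart from less of it per cell.

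On the run days that held both kinds of graft, miR-135a differed between the allogeneic and the syngeneic pool by -2.49 log2 units on the first such day and by -3.04 on the second. miR-135b differed by -1.36 and by -3.07. With run day as a block the differences were -2.77 ± 0.28 for miR-135a and -2.22 ± 0.54 for miR-135b (SE). These rest on the same run days alone and are no separate evidence. The fit left 1 residual degree of freedom, and its SE draws on the spread of the other assays.

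Set against normal hearts, miR-135a and miR-135b stood at different distances. Syngeneic grafts held 2.72 ± 0.38 log2 units more miR-135a than the normal array (SE, 3 pools against 1 array; 6.58-fold), the 21st highest of 242 differences. For miR-135b the same difference was 1.03 ± 0.77, or 2.04-fold, the 56th highest. By quantiles these were 1.81 and 0.53. Allogeneic grafts differed from the normal array by -0.34 ± 0.38 for miR-135a. For miR-135b that difference was -1.71 ± 0.77, or 3.28-fold lower, and it was -1.14 without allogeneic pool 2, whose well was marked, -1.12 when scaled to snoRNA202 and -2.48 by quantiles. The lone normal array has no replicate, was run on a day of its own and was assumed to vary like the grafts. The strain of syngeneic grafts and of normal hearts cannot be told apart from transplantation in the syngeneic values. The allogeneic minus normal difference of miR-135a was 0.25 when scaled to snoRNA202 and -1.33 by quantiles, so that its sign depends on the scaling. Counted from the median of all assays it was -0.17, and -0.75 by quantiles.

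The authors' deposited relative quantity, scaled to snoRNA202 with normal hearts at 1, also put the syngeneic pools highest. In it miR-135a stood at 7.51, 8.68 and 10.9 in syngeneic and 1.09, 0.98 and 1.57 in allogeneic pools, so that 2 of the 3 allogeneic pools lay above normal hearts with that control. miR-135b stood at 2.19, 3.70 and 2.62 in syngeneic and 0.698, 0.214 and 0.655 in allogeneic pools.

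A quantity that needs no scaling is the Ct of the miR-135b assay minus that of the miR-135a assay on the same array. It does not say which microRNA is more abundant, because assays differ in efficiency, but its change between arrays shows unequal change. It was -0.94 in normal hearts, 0.84, 0.29 and 1.12 in the syngeneic pools, and -0.29, 1.26 and 0.32 in the allogeneic pools. All 6 grafts lay above the normal array, and the syngeneic mean of 0.75 ± 0.42 and the allogeneic mean of 0.43 ± 0.78 (SD, n = 3 pools each) overlapped. The comparison with normal hearts rests on a lone array without a replicate, so that unequal change from normal hearts is not established. On average the gap differed from that of the normal array by 1.69 log2 units in syngeneic and 1.37 in allogeneic grafts, whereas the kinds of graft differed by 0.32. That last value rests on the marked miR-135b well of allogeneic pool 2: without it the allogeneic mean was 0.015 (2 pools) and the difference 0.74. The 1.37 of allogeneic grafts against normal hearts uses the same allogeneic mean and would also be smaller without that well.

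The cardiac muscle microRNAs, a list of 7 assays for microRNAs made in heart muscle, had lower means in allogeneic than in syngeneic grafts, as the miR-135 assays did, but differed from them in syngeneic grafts against normal hearts. In allogeneic against syngeneic grafts 5 of the 7 were called lower and 0 higher, beside 15.1% of all assays called lower. Their median difference was -1.67 log2 units against 0.02 over all 238 assays. miR-208b, made from a cardiac myosin gene, fell by 2.29 ± 0.34 (limma adjusted p = 0.00457, n = 3 pools per group). miR-133a fell by 1.67 ± 0.26 (limma adjusted p = 0.00457). miR-1, which is made from the same precursor transcripts as miR-133a, fell by 1.53 ± 0.29 (adjusted p = 0.0100). miR-208, also from a myosin gene, fell by 1.48 ± 0.29 (adjusted p = 0.0118). Of these, miR-133a was not called by quantiles and miR-208 not when scaled to MammU6. Against normal hearts the mean of all 7 was lower in syngeneic grafts (median -1.21) and in allogeneic grafts (median -3.00). Syngeneic miR-208b stood at -0.10 against the normal array, and above it when scaled to MammU6 or snoRNA202, and quantile normalization left 6 of 7 below. The miR-135 assays thus stood above the normal array in syngeneic grafts, where the cardiac muscle assays other than miR-208b stood below it or, for 1 of them by quantiles, level with it.

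Measured against 6 cardiac muscle assays detected on all 7 heart arrays, a scaling chosen after the values were seen, the allogeneic minus syngeneic difference was -1.48 ± 0.28 for miR-135a and -1.16 ± 0.53 for miR-135b (SE). On that scale miR-135a stood at -9.69 in normal hearts, -5.74, -5.70 and -5.55 in syngeneic and -6.80, -7.32 and -7.31 in allogeneic pools. miR-135b stood at -8.75 in normal hearts, -6.58, -6.00 and -6.67 in syngeneic and -6.51, -8.59 and -7.63 in allogeneic pools. All 6 grafts were above normal hearts for both, and for miR-135b the syngeneic and allogeneic pools overlapped. This scaling shifts every assay of an array alike. On it the median allogeneic minus syngeneic difference over the 238 assays tested was 1.61, against 0.02 on the scale of the reference assays. The cardiac muscle assays were themselves lower in grafts than in normal hearts, so that the position above normal hearts includes a shift shared by all assays. The part of muscle content in the levels of miR-135a and miR-135b was not tested.

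The 6 leukocyte assays were detected on all 14 arrays. In allogeneic against syngeneic hearts 3 of them were called higher and 0 lower, beside 17.2% of all assays called higher, with a median of 1.06. miR-142-3p, made in blood cells, rose by 1.64 ± 0.25 (limma adjusted p = 0.00457), miR-342-3p by 1.30 ± 0.38 (adjusted p = 0.0431) and miR-142-5p by 1.02 ± 0.30 (adjusted p = 0.0419). miR-155, induced in activated lymphocytes and macrophages, stood at 1.10 ± 0.35 (adjusted p = 0.0524). miR-150, found in mature lymphocytes, stood on the other side at -0.49 ± 0.22 (adjusted p = 0.124), and was called lower when scaled to the median. Like miR-223 below, it was named after its value was seen. None of the 6 was called when scaled to MammU6 (median 0.94), and miR-142-3p was the only one called higher when scaled to snoRNA135 with snoRNA202, to the median or by quantiles. The log2 summed level of the list ran from 7.22 to 7.72 in syngeneic and from 7.97 to 8.47 in allogeneic grafts, and was 6.80 in normal hearts. For the cardiac list the sums ran from 10.5 to 11.3 and from 9.13 to 9.47, with 12.2 in normal hearts. These sums moved with the groups, and their part in the miR-135 values was not tested.

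**Figure D2:**
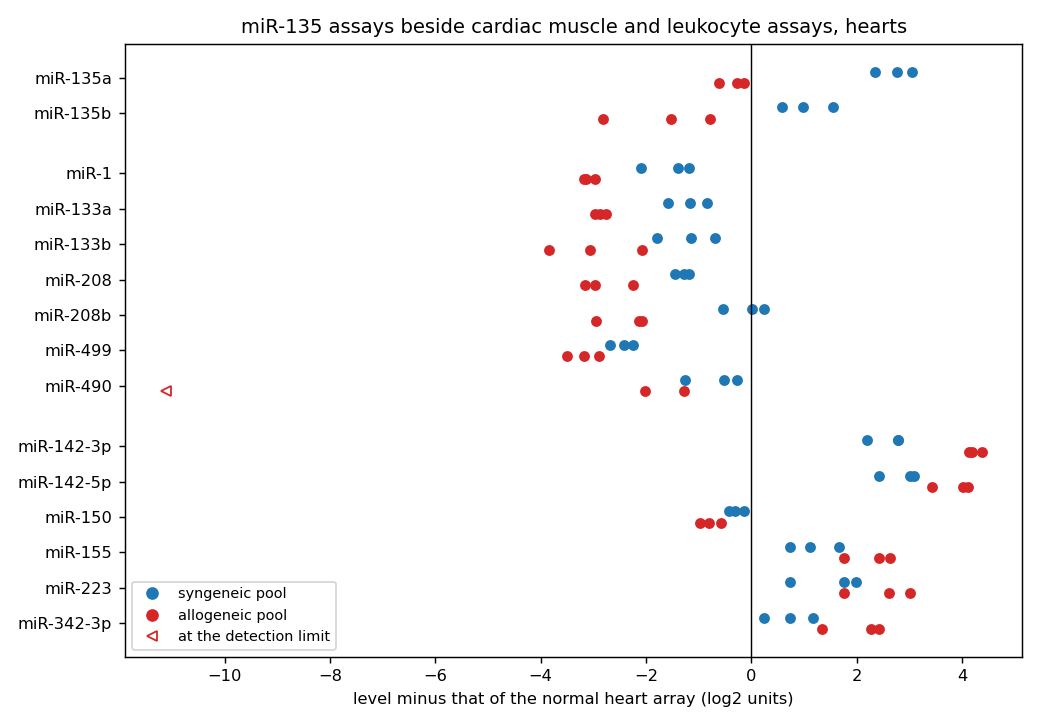
Level of each graft pool minus the level of the normal heart array (log2 units, horizontal axis) for the miR-135 assays, the 7 cardiac muscle assays and the 6 leukocyte assays, with syngeneic pools in blue, allogeneic pools in red and an open triangle at the detection limit. miR-135a lies at 2.35 to 3.04 in syngeneic pools, to the right of 0 like most leukocyte assays, and at -0.62 to -0.15 in allogeneic pools.

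miR-135a has been reported as a member of a set of microRNAs that act on Runx2, and the 10 others of that set are on the card. In hearts 7 of the 10 were tested, of which 3 were called lower and 0 higher, beside 15.1% of all assays called lower. Their median was -0.27 against 0.02 over all assays. miR-204, which restrains bone formation in mesenchymal cells, fell by 1.92 ± 0.28 (limma adjusted p = 0.00457, n = 3 pools per group). miR-133a, also on the muscle list, fell as given above, and miR-30c, which is expressed in the heart, fell by 1.25 ± 0.29 (adjusted p = 0.0219). miR-338-3p stood at 0.35 ± 0.27 (adjusted p = 0.353). miR-30c was not called when scaled to MammU6, and miR-133a was not called by quantiles. let-7g, the neighbour of Mir135a-1, differed by -0.42 ± 0.23 in hearts (adjusted p = 0.192) and was not called.

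The likeness of each assay to the members was measured as the root mean square difference between levels centred on their mean over the 7 heart arrays, which are shared by all profiles. Among 209 other assays detected on all 7, miR-135b was the nearest to miR-135a and miR-135a the nearest to miR-135b, at 0.73 log2 units. Both were chosen with these values known and were lower in allogeneic than in syngeneic grafts, so that their nearness is a description only. The medians over all assays were 1.60 for miR-135a and 1.49 for miR-135b. The next nearest to miR-135a were miR-199a-3p (0.80), miR-224 (0.83), miR-214 (0.95) and miR-136 (1.00). Those next nearest to miR-135b were miR-199a-3p (0.81), miR-672 (0.86), miR-345-5p (0.90) and the muscle microRNA miR-133b (0.90). miR-199a-3p and miR-214 are made together in fibroblasts and other mesenchymal cells. Like the members, miR-199a-3p (0.77 log2 units), miR-224 (0.97), miR-214 (1.26) and miR-136 (0.64) had a higher mean in syngeneic grafts than in the normal array. In allogeneic grafts the same 4 assays stood at -1.17, -0.79, -0.59 and -0.96 against it. Their size in syngeneic grafts was smaller than the 2.72 of miR-135a. In contrast, the syngeneic means of miR-672 (-0.27), miR-345-5p (-0.86) and miR-133b (-1.21) lay below the normal array. When scaled to snoRNA202, miR-672 in syngeneic and miR-214 in allogeneic grafts lay above it, and miR-672 also did when scaled to MammU6.

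**Figure D3:**
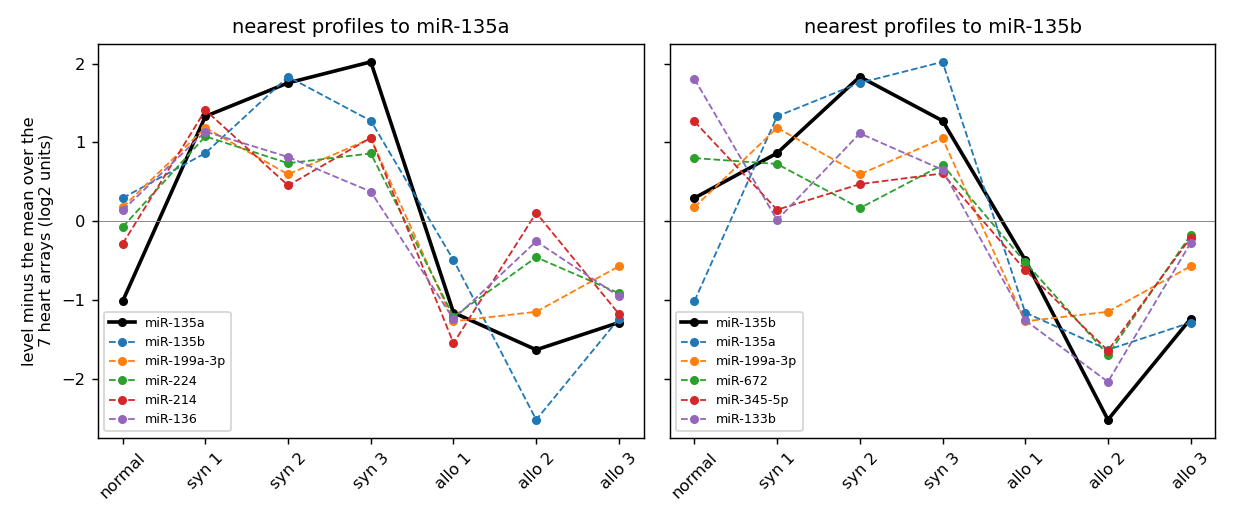
Level minus the mean over the 7 heart arrays (log2 units) for miR-135a (left, black) and miR-135b (right, black) with the 5 assays nearest to each, a line joining the values of an assay across normal hearts, syngeneic and allogeneic pools. The profiles stand above 0 in the syngeneic pools and, except miR-214 in allogeneic pool 2, below 0 in the allogeneic pools, while the normal array separates them.

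In the lymphocyte preparations both microRNAs were near the limit of the card. miR-135a was read at Ct 31.0, 32.6 and 31.6 in the syngeneic GIL pools, at 31.8 and 32.4 in allogeneic pools 1 and 2 and at 32.7 in PBMC, and it was undetermined in allogeneic pool 3. Its levels were -6.24, -6.86 and -6.56 in the syngeneic pools, -7.64 and -7.45 in allogeneic pools 1 and 2 and -9.54 in PBMC. In allogeneic pool 3 the detection limit stood at a level of -7.05, since that array was weak throughout. On this scale the undetermined well lies below all 3 syngeneic pools and is not ranked among the allogeneic pools. Relative to snoRNA202 its limit of -13.04 lies above syngeneic pool 2 (-13.50), and relative to MammU6 its limit of -16.16 lies above syngeneic pools 2 (-16.72) and 3 (-16.93), so that it is not ranked against them there. All 5 GIL arrays with a Ct lay above PBMC.

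miR-135b was detected in syngeneic GIL pools 1 and 3 at Ct 31.9 and 31.2, and in allogeneic pool 2 at Ct 33.0, where the software had marked the well. It was undetermined in the other 3 GIL pools and in PBMC. Its levels were -7.17 and -6.16 in the syngeneic pools and -7.99 in the allogeneic pool. The detection limits of the undetermined wells stood at -9.22 in syngeneic pool 2, -10.87 in allogeneic pool 1, -7.05 in allogeneic pool 3 and -11.82 in PBMC. The undetermined syngeneic pool 2 was thus lower than the detected allogeneic pool, and the groups overlapped. No difference is given, since no group was detected on all of its GIL arrays.

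**Figure D4:**
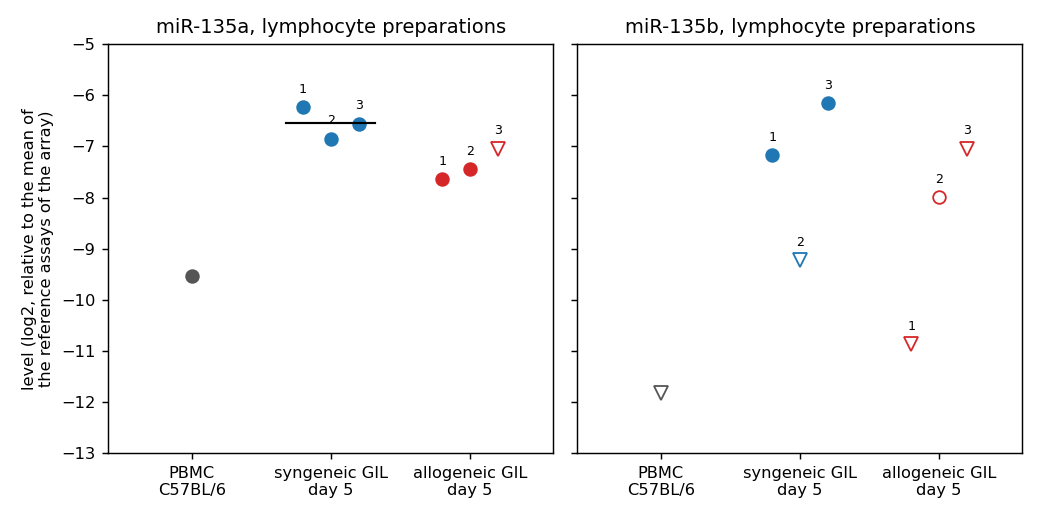
Level (log2, relative to the mean of the reference assays of the array) of miR-135a and miR-135b in PBMC (1 array, grey) and in syngeneic (blue) and allogeneic (red) GIL on day 5, with pool numbers above the points. Open triangles mark the detection limit of arrays with no Ct, the open circle a well marked by the software, and the line the mean of a group detected on all arrays. On this scale miR-135a is highest in the 3 syngeneic pools, while miR-135b has a Ct on 3 of 7 arrays.

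With the undetermined well at its limit, the allogeneic minus syngeneic difference of miR-135a in GIL was -0.83 ± 0.28 log2 units (limma SE, n = 3 pools per group), and it was -0.90 without allogeneic pool 3. The undetermined well can only lie at or below its limit, so that -0.83 is an upper bound. Its SE takes the limit as a measured value. miR-135a was not called in GIL, where 48 of 201 assays (23.9%) were called lower. The 73 calls in both directions were 46, 40 and 40 without syngeneic pools 1, 2 and 3. The difference depended on the scaling: it was -0.011 relative to MammU6 and 0.061 relative to snoRNA202. Counted from the median of all assays tested, which these scalings shift alike, it was -0.59 under each, and -1.15 by quantiles. Against PBMC, miR-135a stood 2.99 ± 0.41 log2 units higher in syngeneic GIL (7.93-fold, 3 pools against 1 array). In allogeneic GIL it stood 2.16 ± 0.40 higher, likewise an upper bound with pool 3 at its limit. Quantile normalization turned both, to -1.27 and -2.36. The syngeneic GIL were all run on 1 day and the allogeneic GIL on 2 others, so that run day and group cannot be told apart. The PBMC array was run on a day of its own, so that the same holds for the differences from PBMC.

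The authors' deposited relative quantity of miR-135a in GIL, with PBMC at 1, was 12.9, 8.12 and 12.7 in syngeneic pools and 7.94 and 17.0 in allogeneic pools 1 and 2. The deposited 0.349 for allogeneic pool 3 comes from an undetermined well entered at Ct 40. For miR-135b the deposited values of 1049.8 and 2618 in syngeneic pools and 1817 in allogeneic pool 2 rest on a PBMC well that was itself undetermined and entered at 40.

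Muscle microRNAs were present in the GIL preparations beside miR-135a. miR-1 and miR-133a, the muscle assays also detected in PBMC, had mean levels of 0.28 and 3.74 in syngeneic and 1.94 and 5.42 in allogeneic GIL, against -7.30 and -3.81 in PBMC. In allogeneic against syngeneic GIL 2 of the 3 cardiac muscle assays tested were called higher, beside 12.4% of all assays called higher, with a median of 1.66 against -0.24 over 201 assays. miR-133a rose by 1.67 ± 0.40 (limma adjusted p = 0.0247, n = 3 pools per group), although it was not called when scaled to snoRNA135 with snoRNA202 or by quantiles. miR-1 stood at 1.66 ± 0.61 (adjusted p = 0.0787). miR-208 was detected on 2 of 3 arrays of each kind, and miR-208b and miR-490 on none of the GIL arrays. The muscle sum ran from 3.78 to 4.47 in syngeneic and from 5.18 to 6.45 in allogeneic GIL and was -3.69 in PBMC. That sum was higher in allogeneic GIL, whereas miR-135a differed by -0.83 on the same scale, and its part in the miR-135a values was not tested.

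Of the leukocyte list, 2 of 6 were called higher and 0 lower in allogeneic GIL, with a median of 0.79, beside 12.4% of all assays called higher and 23.9% lower. miR-155 rose by 1.98 ± 0.26 (limma adjusted p = 0.00713) and miR-142-3p by 1.60 ± 0.34 (adjusted p = 0.0168). miR-342-3p stood at 0.58 (adjusted p = 0.199) and miR-142-5p at 1.00 (adjusted p = 0.0916). miR-223, a microRNA of myeloid cells, stood at -0.83 ± 0.66 (adjusted p = 0.344). The leukocyte sum ran from 5.38 to 6.20 in syngeneic and from 6.05 to 6.62 in allogeneic GIL, below the 8.57 of PBMC. Of the 10 microRNAs reported to act on Runx2, 5 were tested in GIL, 1 called higher (miR-133a) and 1 lower, beside those 12.4% and 23.9%. Their median of -0.64 is above 0 when scaled to small RNA controls. The fall was that of miR-218 (-1.54 ± 0.28, adjusted p = 0.0105), named after its value was seen and not called when scaled to small RNA controls. miR-204 stood at -0.64 (adjusted p = 0.254) and miR-30c at 0.05 (adjusted p = 0.879), and let-7g at 0.30 (adjusted p = 0.314).

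Hearts and GIL were normalized separately, and the Ct relative to snoRNA202 of the same card, as deposited, gives the values side by side. For miR-135a this delta Ct, which falls as the level rises, ran from 9.85 to 10.4 in syngeneic hearts, from 12.6 to 13.3 in allogeneic hearts and stood at 13.3 in normal hearts. It ran from 12.8 to 13.5 in syngeneic GIL, was 13.5 and 12.4 in allogeneic GIL pools 1 and 2, and 16.5 in PBMC. Allogeneic GIL pool 3 was undetermined and is not ranked. Of the arrays with a Ct, syngeneic hearts held the lowest delta Ct and PBMC the highest, and the 5 GIL values overlapped the range of allogeneic and normal hearts and lay on both sides of it. Differences between the tables were not tested. On the scale of the reference assays the order of miR-135a levels in hearts was syngeneic, then normal and allogeneic. The difference between these last was smaller than its standard error there, but not in every scaling. It was -1.33 ± 0.44 by quantiles, -0.55 ± 0.39 with the median and -0.48 ± 0.45 with both snoRNAs (SE). For miR-135b the order on the scale of the reference assays was syngeneic, normal, allogeneic. There the normal array lay 0.57 below the lowest syngeneic and 0.79 above the highest allogeneic pool, distances smaller than the largest group SD of 1.03.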

How the data were processed

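Real-time PCR array cards were run on 14 RNA pools in 2 tables of 7. Per the labels' protocols, RNA was isolated with the mirVana kit, reverse transcribed, preamplified with Megaplex primers and run on a 7900HT instrument. Per the file headers the values were exported from SDS 2.4. The deposited Ct is a score in cycles. The deposited delta Ct is an inverted log2 value and equals Ct minus that of snoRNA202, with undetermined wells at 40, within 5.00e-04 over 5249 values. The deposited relative quantity (RQ) is a ratio in which the normal array is 1. Baseline and threshold settings are not given in the sources used here, and 1 well whose plate name matched no sample was left out.

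Ct values were limited at 35 and scaled to the mean of the reference assays (210 in hearts, 137 in GIL and PBMC). limma 3.58.1 (R 4.3.3) gave the differences between groups, with Benjamini-Hochberg adjustment and a threshold of 0.05. It covered assays with a Ct under 35 on all arrays of either group compared. The limma fit alone was checked on simulated levels with independent noise and every assay detected. That check does not cover the scaling, the Ct limit, undetermined wells or run days. Lists, the members and the rule for named assays were chosen with earlier results of these data known. The rule took the members, at most 4 assays a list by smallest p in hearts, and the 5 nearest profiles. Other scalings, limits, marked wells, left-out pools and blocks were tried.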

Additional observations from a re-analysis of the deposited data

How the results depend on the processing

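Settings were changed 1 at a time. In hearts the allogeneic minus syngeneic differences of miR-135a and miR-135b kept their sign under every setting run, and the other planned scalings gave -3.32 to -2.91 and -3.01 to -2.59. Relative to the cardiac muscle assays, a scaling added after the data were seen, they were -1.48 and -1.16, the syngeneic minus normal differences 4.02 and 2.33 and the allogeneic minus normal differences 2.54 and 1.18. These values include a shift that this scaling gives to all assays. Syngeneic minus normal, miR-135a was 3.06 with MammU6, 3.16 with snoRNA202 and 1.81 by quantiles. Allogeneic minus normal it was 0.25 with snoRNA202 and -1.33 by quantiles. In GIL, miR-135a between the kinds of graft was -0.011 with MammU6, 0.061 with snoRNA202, -0.18 with both snoRNAs and -2.46 with undetermined wells at Ct 40. Against PBMC its syngeneic and allogeneic differences were 3.46 and 3.52 with snoRNA202, 3.32 and 3.14 with both snoRNAs, 2.66 and 0.20 with Ct 40, and turned to -1.27 and -2.36 by quantiles. The syngeneic one was 1.89 with MammU6 and the allogeneic one 2.61 with the median. The cause of these changes was not tested, except that Ct 40 moves the undetermined well by construction. A limit of Ct 32 gave no miR-135a value in GIL.

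The 77 heart calls became 34 with MammU6, 42 without the detection filter, 2 with run day as a block (1 residual degree of freedom) and 167 relative to the cardiac muscle assays (164 higher, 3 lower). The 73 GIL calls became 48 with snoRNA202, 31 with both snoRNAs and 35 without the filter. The 41 higher and 36 lower heart calls were 42 and 23 with snoRNA202 and 24 and 56 with the median. The 25 higher and 48 lower GIL calls were 34 and 20 with MammU6, 38 and 10 with snoRNA202, 21 and 10 with both snoRNAs, 36 and 39 with the median and 34 and 31 by quantiles. With the planned scalings the median over all assays tested moved from 0.02 to between -0.24 and 0.18 in hearts and from -0.24 to between -0.02 and 0.65 in GIL. Relative to the cardiac muscle assays it was 1.61 in hearts.

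Without 1 pool at a time, the heart calls ran from 42 to 81 and the GIL calls from 40 to 73. Same-numbered pools did not deviate together (correlations of -0.13 to -0.05 in hearts and -0.02 to 0.06 in GIL). No pairing by number was thus seen, although so few pools cannot exclude one. With the number as a replicate block the heart calls were 46 and the GIL calls 55, and the differences stayed at -3.06, -2.74 and, in GIL, -0.83. The normal arrays have no partner for such a block. Every normal or PBMC value rests on a single array, and in GIL the miR-135 Ct values of 31.0 to 33.0 lie close to the limit of 35.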
